A study of Mus musculus with 16 samples.

Results

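The 34 genes described here build cholesterol and fatty acids, or sense and move sterols, and they were followed across 4 CD8 T-cell subsets sorted from leukemic mouse spleens. They were taken from a list of pathway genes, and a gene was measured where an array probe set carried its symbol and no other. This left 30 of the 34, out of 22180 genes measured in the same way. Idi1 and Scd2 lie only on probe sets that carry other symbols too, and Acat2 and Nr1h2 have no entry in the probe annotation used here, so these 4 have no value. For Scap, the only member with more than 1 probe set of its own, the brighter of the pair was used.

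The cells came from female C57BL/6 mice (the strain field of the labels reads C56BL/6) that had been transplanted with Eµ-TCL1 cells. Mice with the Eµ-TCL1 transgene develop a B-cell tumour that serves as a model of human CLL, chronic lymphocytic leukemia. After 6 weeks, cells that were Lin-, TCRb+ and CD8+ were sorted from the spleen. Naive cells were gated as CD127hi and CD44low, and memory cells as CD127hi with CD44hi. Both effector subsets were CD127low with CD44int-hi, and staining at the PD-1int or the PD-1hi level gave each its name. CD127 is a receptor chain for interleukin 7, CD44 marks cells that have met antigen, and PD-1 is an inhibitory receptor. Each subset was measured on 4 arrays, 16 in all. Every group carried the leukemia, so no value here compares leukemic with healthy mice. The labels give neither the age of the mice nor whether an array holds RNA of 1 mouse or of a pool.

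Cholesterol is built from acetyl-CoA through mevalonate, isoprenoid units, squalene and lanosterol. When sterols in the endoplasmic reticulum run low, SCAP carries the SREBP transcription factors to the Golgi for cleavage, and INSIG proteins hold them back when sterols are plentiful. Sterol surplus activates the LXR nuclear receptors, which induce the exporters ABCA1 and ABCG1. T cells that start to divide are known to switch on sterol and fatty acid synthesis to supply membrane, and membrane cholesterol is known to affect T-cell receptor clustering.

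Values are log2 expression of a probe set, and each difference between subsets is given on the log2 scale with its standard error from limma (4 arrays in each subset). Rising, falling and passing all mean a limma p under 0.05 after Benjamini-Hochberg adjustment over the 22180 genes of that comparison. Probe sets differ in how they bind, so levels are compared between subsets and not between genes. The arrays were of even scale, with medians from 6.39 to 6.49. T-cell markers were bright in all 16 arrays, Cd3e from 12.43 to 12.96 and Cd8a from 11.19 to 11.73. Pdcd1, which encodes PD-1, averaged 11.40 ± 0.15 in PD-1hi, 10.12 ± 0.31 in PD-1int, 7.10 ± 0.10 in memory and 6.80 ± 0.30 in naive cells (mean ± SD). Of 13 measured B-cell and CLL markers, 1 (Cd22) rose in each subset against naive. Among all genes, 6.7% rose and 5.02% fell in memory, 11.9% and 10.8% in PD-1int and 13.4% and 13.7% in PD-1hi. Of the 13 markers, against naive 0 fell in memory and 3 in PD-1int (Cd79b -0.72 ± 0.13, Bank1 -0.83 ± 0.19 and Pou2af1 -0.38 ± 0.10). In PD-1hi 2 of them fell (Cd79b -0.97 ± 0.13 and Bank1 -0.91 ± 0.19). Ms4a1, which encodes the B-cell protein CD20, ranged from 5.18 to 6.17 and passed in no comparison.

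Promoter windows show the regulatory letters that several members carry near their start site. RefSeq windows on GRCm38.p6, from 250 bases before to 50 bases after a start site, were found for 24 of the 30 measured genes. Fdps, Fdft1, Sqle, Abcg1, Scd1 and Stard4 had none and were not searched. The windows of 4 genes are printed 5′ to 3′ on the gene's strand, with motif matches on either strand in capitals. They are those of Hmgcs1 (chr13:119690101-119690400, plus strand), the only 1 of those 24 with a sterol regulatory element of the letters searched, Cyp51 (chr5:4104648-4104947, minus strand) and Ebp (chrX:8193463-8193762, minus strand), which encode sterol enzymes that rose in both effector subsets against memory, and Abca1 (chr4:53159846-53160145, minus strand), the member with the largest differences.
Hmgcs1: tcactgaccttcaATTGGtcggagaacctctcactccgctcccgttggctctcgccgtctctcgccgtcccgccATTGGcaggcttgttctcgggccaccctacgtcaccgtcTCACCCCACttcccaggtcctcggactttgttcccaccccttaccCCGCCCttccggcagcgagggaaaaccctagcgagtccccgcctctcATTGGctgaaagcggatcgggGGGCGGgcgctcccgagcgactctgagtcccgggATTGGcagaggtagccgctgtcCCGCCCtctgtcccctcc
Cyp51: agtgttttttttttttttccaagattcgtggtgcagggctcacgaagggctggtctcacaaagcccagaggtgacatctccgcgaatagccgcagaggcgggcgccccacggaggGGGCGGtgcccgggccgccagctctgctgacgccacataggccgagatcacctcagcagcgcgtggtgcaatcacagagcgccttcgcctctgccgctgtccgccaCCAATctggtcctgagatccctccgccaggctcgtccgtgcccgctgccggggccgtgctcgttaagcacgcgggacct
Ebp: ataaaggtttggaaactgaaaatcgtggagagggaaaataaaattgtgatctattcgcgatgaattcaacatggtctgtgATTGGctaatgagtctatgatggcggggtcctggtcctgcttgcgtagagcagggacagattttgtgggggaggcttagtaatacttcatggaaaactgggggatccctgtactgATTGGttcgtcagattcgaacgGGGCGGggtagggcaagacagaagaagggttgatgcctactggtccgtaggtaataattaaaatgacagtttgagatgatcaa
Abca1: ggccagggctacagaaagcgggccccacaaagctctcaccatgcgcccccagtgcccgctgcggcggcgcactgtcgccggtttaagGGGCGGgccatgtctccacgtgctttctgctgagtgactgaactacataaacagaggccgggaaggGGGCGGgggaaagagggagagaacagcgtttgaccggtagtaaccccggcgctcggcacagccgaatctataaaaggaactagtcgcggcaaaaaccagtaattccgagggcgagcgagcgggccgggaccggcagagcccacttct
In the Hmgcs1 window the capitals mark 1 sterol regulatory element (TCACNCCAC, starting at position -137 from the start site), 4 NF-Y boxes (CCAAT, or ATTGG on the other strand) and 3 Sp1 boxes (GGGCGG, or CCGCCC on the other strand). The Cyp51 window has 1 NF-Y and 1 Sp1 box, that of Ebp 2 NF-Y boxes and 1 Sp1 box, and that of Abca1 2 Sp1 boxes and none of the others. SREBP factors are known to act together with NF-Y and Sp1. A CCAAT box lay in a window of 19 of the 24 members (79.2%), against 41.1% of all 27025 genes with a window, and GGGCGG also in 19 of 24 (79.2%), against 38.2%. TCACNCCAC was found for 1 of 24 members (4.17%) and 1.44% of all genes, and the DR4 element bound by LXR for 0 of 24 and 0.0148% of all genes. Motifs were counted separately on both strands, whether or not their matches overlapped. A gene counted where any of its windows held the motif. The 27025 genes were not limited to those measured, nor matched to the members for expression or number of windows, and no enrichment was tested. A match is a description and not a site of binding, and a window without a match says only that these letters are not in its 300 bases.

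Most of the pathway varied over the subsets. A moderated F test over the 4 subsets (limma, adjusted p under 0.05) found a difference for 21 of the 30 genes, where 30.4% of all genes passed. The 9 that did not were Hmgcs1, Mvd, Lss, Hsd17b7, Srebf1, Insig1, Nr1h3, Scd1 and Elovl6. Shares of all genes, here and below, include dim genes and were not matched for level, while 29 of the 30 members lay above the 40% dimmest genes. Against naive cells, 5 genes changed in memory cells (11.7% of all genes did), of which 1 rose (6.7%) and 4 fell (5.02%). This count was 3 (1 up, 2 down) without naive replicate 3 and without each of the 4 memory replicates. In PD-1int cells 11 changed (22.7% of all genes), 7 up (11.9%) and 4 down (10.8%), and in PD-1hi cells 16 changed (27.1%), 8 up (13.4%) and 8 down (13.7%). Against memory cells, PD-1int had 13 changed genes (16.2% of all genes), 11 up (8.49%) and 2 down (7.66%), and PD-1hi had 18 (21.9%), 12 up (10.8%) and 6 down (11.1%). Between PD-1hi and PD-1int no member passed (3.31% of all genes, 1.37% up and 1.94% down). In PD-1int against naive, quantile normalization gave 6 rises and 7 falls. The median difference over the 30 genes stayed small in each comparison, from -0.08 in PD-1hi against naive (all genes -0.01) to 0.16 in PD-1int against memory (all genes -0.0042). Comparisons against one subset share its 4 arrays and are not independent of each other.

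**Figure D1:**
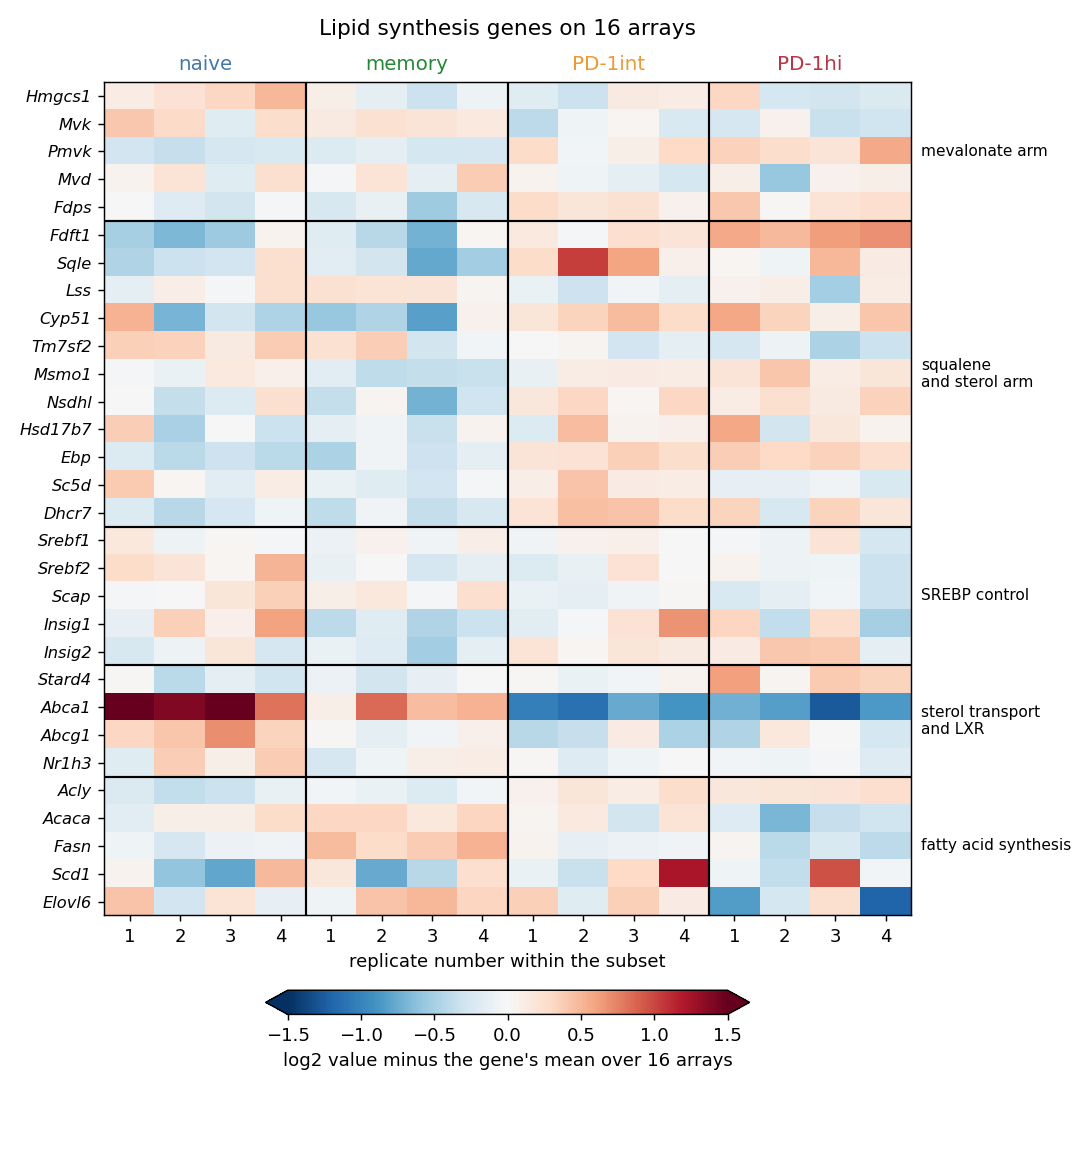
Heat map of the 30 genes (rows, by role) on the 16 arrays (columns, by subset and replicate number). Colour gives the log2 value minus the gene's mean over all arrays, with darkest shades at 1.5 or beyond. Abca1 is red in the 8 naive and memory arrays and blue in the 8 effector arrays, while rows of the squalene and sterol arm mostly run the other way.

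Among the 16 measured enzymes of cholesterol synthesis, rises outnumbered falls in effector cells. Against memory, 10 of 16 rose (8.49% of all genes) and 0 fell (7.66%) in PD-1int, and 9 rose (10.8%) and 1 fell (11.1%) in PD-1hi. Against naive, 6 rose (11.9% of all genes) and 2 fell (10.8%) in PD-1int, and 6 rose (13.4%) and 3 fell (13.7%) in PD-1hi. From naive to memory, 0 of 16 rose (6.7% of all genes) and 1, Msmo1, fell (5.02%). As shares of the 16, the falls against naive were 12.5% in PD-1int, 18.8% in PD-1hi and 6.25% in memory, near those of all genes. In bulk RNA of a sorted subset, more cells with a transcript and more transcript per cell cannot be told apart.

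The early, mevalonate part of the route moved in both directions. Hmgcs1 encodes the synthase that makes HMG-CoA, and Mvk, Pmvk and Mvd encode the kinases and the decarboxylase that turn mevalonate into an isoprenoid unit. Pmvk values were 8.28, 8.23, 8.32 and 8.35 in naive replicates 1 to 4, 8.38, 8.43, 8.31 and 8.32 in memory, 8.86, 8.53, 8.66 and 8.87 in PD-1int and 8.92, 8.84, 8.77 and 9.14 in PD-1hi. All 8 effector arrays lay above all 8 naive and memory arrays. Pmvk rose against naive by 0.43 ± 0.09 in PD-1int (limma adjusted p = 0.00146) and by 0.62 ± 0.09 in PD-1hi (adjusted p = 3.01e-05). Mvk, which acts 1 step before Pmvk, went down: its means were 7.15 ± 0.19 in PD-1hi, 7.19 ± 0.19 in PD-1int, 7.53 ± 0.04 in memory and 7.55 ± 0.26 in naive cells (mean ± SD). The difference of Mvk from naive was -0.40 ± 0.12 in PD-1hi (limma adjusted p = 0.0193) and -0.36 ± 0.12 in PD-1int (adjusted p = 0.042).

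Fdps makes farnesyl diphosphate, from which both squalene and protein prenyl groups derive. It had 9.06, 8.86, 8.77 and 9.02 in the naive arrays, 8.81, 8.94, 8.52 and 8.81 in memory, 9.32, 9.24, 9.28 and 9.12 in PD-1int and 9.46, 9.07, 9.26 and 9.30 in PD-1hi. Each PD-1int array exceeded each naive and memory array. The difference against memory was 0.47 ± 0.10 in PD-1int and 0.50 ± 0.10 in PD-1hi (limma adjusted p = 0.00297 and 0.00113). Hmgcs1, the member with the sterol regulatory element shown above, was highest in naive cells, at 8.15 ± 0.16 against 7.76 ± 0.29 in PD-1hi, 7.80 ± 0.23 in PD-1int and 7.76 ± 0.17 in memory (mean ± SD). It passed only in PD-1hi against naive (-0.40 ± 0.14, limma adjusted p = 0.0417). Mvd passed nowhere, with differences from -0.21 to 0.03. Some of these calls were lost without 1 array. Of 16 fits that each left out 1 array, Mvk lost its call in 11 for PD-1int against naive (highest limma adjusted p 0.139, without PD-1int replicate 1), in 4 for PD-1hi against naive (0.072, without naive replicate 1) and in 7 for PD-1hi against memory (0.0905, without PD-1hi replicate 3). Hmgcs1 lost its call in 8 (0.129, without naive replicate 4), and Fdps in 5 for PD-1int (0.115, without naive replicate 3) and 2 for PD-1hi against naive (0.0672, without PD-1hi replicate 1).

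From squalene onward most enzymes were higher in the effector subsets than in memory. Of the 11 members of this arm, 8 rose in PD-1int (8.49% of all genes) and 7 in PD-1hi (10.8%) against memory. No member of the arm fell in either (7.66% and 11.1% of all genes), and the median difference was 0.46 and 0.53. In each, 2 of the 11 had a mean below memory, and Tm7sf2 in PD-1hi nearly passed (-0.35 ± 0.12, limma adjusted p = 0.0509). Against naive, 4 rose and 1 fell in each effector subset. Among all genes 11.9% rose and 10.8% fell in PD-1int, and 13.4% and 13.7% in PD-1hi. Fdft1 encodes squalene synthase, which commits farnesyl diphosphate to sterols. It measured 8.38, 8.20, 8.33 and 8.93 in naive, 8.69, 8.46, 8.16 and 8.90 in memory, 9.02, 8.84, 9.12 and 9.06 in PD-1int and 9.44, 9.36, 9.496 and 9.56 in PD-1hi. The 4 PD-1hi arrays lay above every other array, and the naive and memory arrays overlapped. Fdft1 rose in PD-1hi by 1.00 ± 0.15 against naive, or 2.01-fold (limma adjusted p = 4.10e-05), and by 0.91 ± 0.15 against memory (adjusted p = 0.000161). In PD-1int the rise was 0.55 ± 0.15 against naive and 0.46 ± 0.15 against memory.

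Ebp, the isomerase that shifts a ring double bond late in the route, had the smallest adjusted p of the arm against naive in both effector subsets. Its values were 10.34, 10.13, 10.22 and 10.14 in naive, 10.07, 10.48, 10.22 and 10.40 in memory, 10.73, 10.76, 10.89 and 10.79 in PD-1int and 10.90, 10.84, 10.89 and 10.79 in PD-1hi. All 8 effector arrays lay above all 8 naive and memory arrays. Ebp rose against naive by 0.59 ± 0.09 in PD-1int and 0.65 ± 0.09 in PD-1hi (limma adjusted p = 4.98e-05 and 1.12e-05). Dhcr7, which carries out the last step to cholesterol, rose by 0.57 ± 0.12 in PD-1int and 0.39 ± 0.12 in PD-1hi against naive. Of its PD-1hi arrays, replicate 2 (8.42) lay among the naive values, which ran from 8.24 to 8.58.

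Sqle, the squalene epoxidase and a rate-limiting step, was highest in PD-1int. Its arrays read 7.96, 8.08, 8.12 and 8.65 in naive, 8.24, 8.13, 7.65 and 7.88 in memory, 8.69, 9.45, 9.0003 and 8.49 in PD-1int and 8.44, 8.34, 8.90 and 8.53 in PD-1hi. PD-1int exceeded memory on every array, and replicate 2 of PD-1int was the highest of all 16. Sqle rose in PD-1int by 0.93 ± 0.19 against memory (1.91-fold, limma adjusted p = 0.00217) and by 0.70 ± 0.19 against naive (adjusted p = 0.0123). In PD-1hi it rose against memory (0.58 ± 0.19) and did not pass against naive (0.35 ± 0.19, adjusted p = 0.224). Cyp51, the lanosterol demethylase, varied widely in naive cells, with 7.55, 6.32, 6.75 and 6.56, and read 6.45, 6.57, 6.21 and 7.09 in memory, 7.20, 7.36, 7.50 and 7.30 in PD-1int and 7.61, 7.36, 7.11 and 7.45 in PD-1hi. Naive replicate 1 lay within the effector range, and both effector subsets were above memory on all arrays. Against memory Cyp51 rose by 0.76 ± 0.21 in PD-1int and 0.80 ± 0.21 in PD-1hi (limma adjusted p = 0.0176 and 0.00877).

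Msmo1 and Nsdhl, which act together to strip the methyl groups at carbon C-4, were lowest in memory. Msmo1 fell from naive to memory with a log2 difference of -0.33 ± 0.09 and was higher than memory by 0.37 ± 0.09 in PD-1int and 0.53 ± 0.09 in PD-1hi. Nsdhl rose against memory by 0.54 ± 0.14 and 0.54 ± 0.14, and its difference from naive did not pass (0.29 ± 0.14 and 0.29 ± 0.14). Sc5d, the lathosterol desaturase, rose only in PD-1int against memory (0.34 ± 0.11, limma adjusted p = 0.0387). Tm7sf2, a sterol C14 reductase, went against the arm. It averaged 7.37 ± 0.17 in PD-1hi, 7.56 ± 0.15 in PD-1int, 7.72 ± 0.28 in memory and 7.95 ± 0.11 in naive cells (mean ± SD), a difference of -0.59 ± 0.12 from naive to PD-1hi (adjusted p = 0.0013). Lss, the lanosterol synthase, and Hsd17b7, a sterol ketone reductase, passed in no comparison, with differences from -0.31 to 0.12 for Lss and from -0.01 to 0.25 for Hsd17b7.

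Leaving out 1 array ended some calls of this arm, given as the number of 16 fits and the highest limma adjusted p. Fdft1 in PD-1int against memory lost its call in 12 (0.178, without memory replicate 3), and Cyp51 in PD-1hi against naive in 12 (0.173, without naive replicate 2). Cyp51 in PD-1int against memory lost it in 2 (0.071, without memory replicate 3), Sc5d in 6 (0.145, without PD-1int replicate 2) and Msmo1 in memory against naive in 2 (0.0625, without naive replicate 3). Dhcr7 in PD-1hi lost it in 3 against naive (0.0725, without PD-1hi replicate 3) and 4 against memory (0.0643, without PD-1hi replicate 3), and Tm7sf2 in PD-1int against naive in 5 (0.0954, without PD-1int replicate 3). Sqle lost it in 5 for PD-1hi against memory (0.133, without memory replicate 3) and 1 for PD-1int against naive (0.0519, without PD-1int replicate 2). The Fdft1 call in PD-1hi and all 4 calls of Ebp held in each of the 16 fits.

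**Figure D2:**
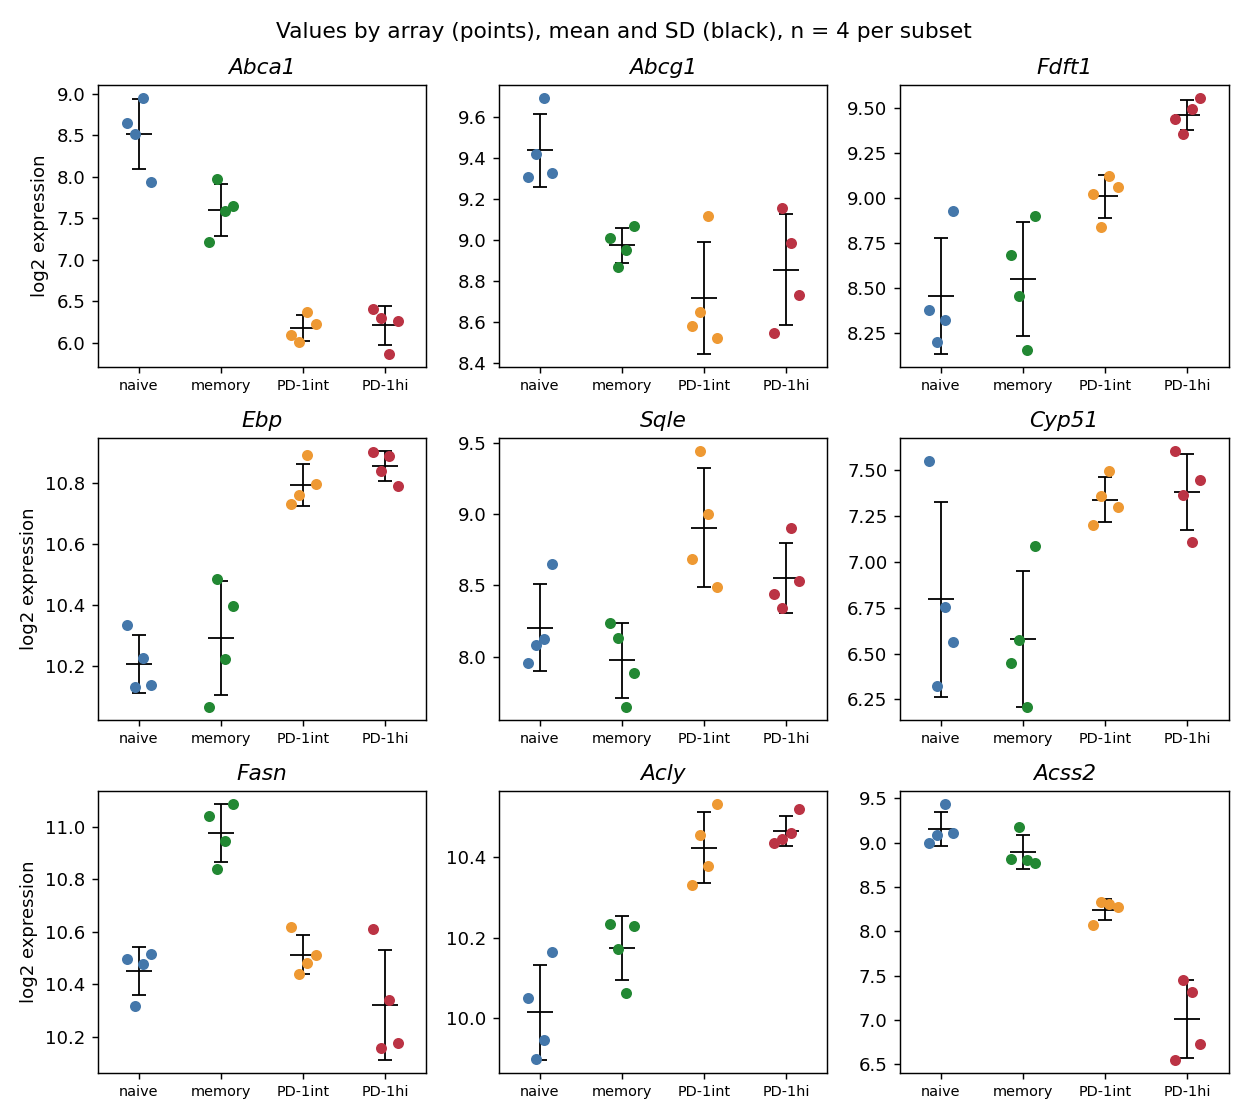
Log2 expression of 8 members and of Acss2 on each of the 16 arrays (points, by subset), with the mean and SD of 4 arrays in black. The vertical scale differs between panels and does not start at 0. Abca1 and Acss2 are lower, and Ebp and Acly higher, in all effector arrays than in all naive and memory arrays, and Fasn peaks in memory.

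Markers of cell division also rose in effector cells. Of 19 measured markers, 18 rose in memory (6.7% of all genes), 19 in PD-1hi (13.4%) and 19 in PD-1int (11.9%) against naive. Against memory, 18 rose in PD-1int (8.49% of all genes) and 19 in PD-1hi (10.8%). Their mean log2 level ran from 9.78 to 10.18 on the PD-1hi arrays, 8.88 to 9.39 on PD-1int, 7.46 to 8.67 on memory and 6.28 to 6.54 on naive arrays. The mean of the 11 squalene and sterol genes ran from 8.53 to 8.65 on the PD-1hi arrays, 8.51 to 8.71 on PD-1int, 7.999 to 8.32 on memory and 8.16 to 8.44 on naive arrays. The division markers of all memory arrays lay above those of all naive arrays, while the sterol means of these subsets overlapped. From PD-1int to PD-1hi 3 of 19 division markers rose (1.37% of all genes) and 0 fell (1.94%). The mean over the 19 was higher on each PD-1hi array than on each PD-1int array, and the sterol means overlapped again. Whether cell division has a part in the sterol differences was not tested.

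**Figure D3:**
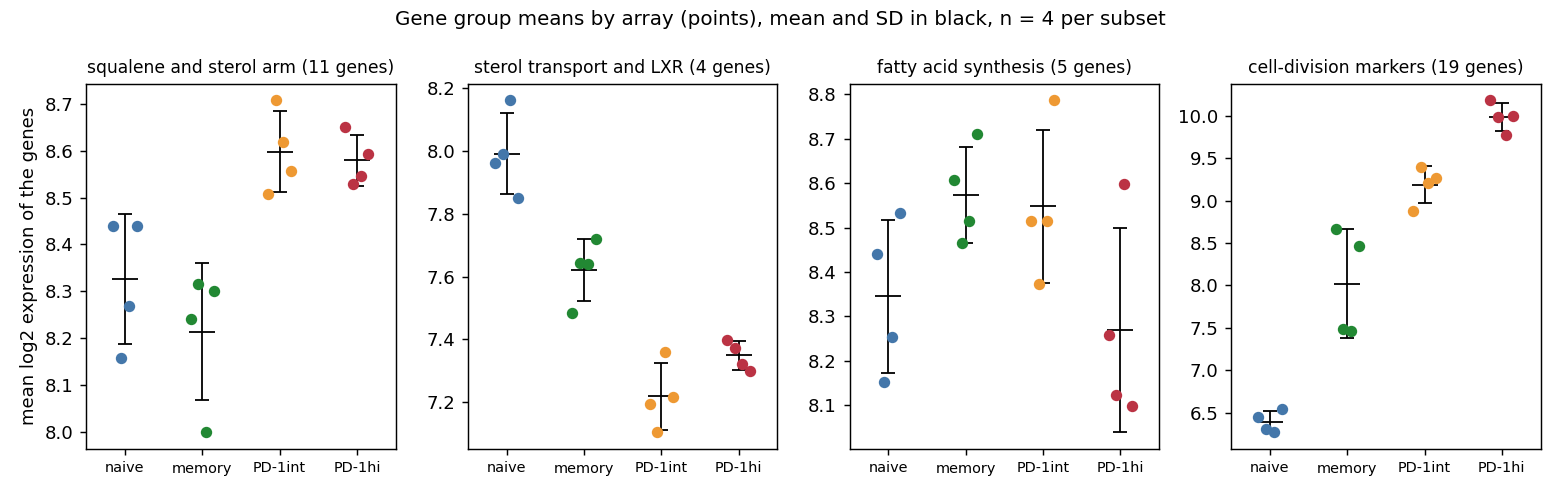
Mean log2 expression of the genes of a group on each array (points, 4 per subset), with the mean and SD in black, for the squalene and sterol arm, sterol transport and LXR, fatty acid synthesis and the cell-division markers. The vertical scale differs between panels. Division markers rise from naive to PD-1hi, while the sterol arm is separated only between the 8 effector arrays and the other 8.

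Of the 5 measured SREBP control genes, 3 differed among the subsets by the F test (30.4% of all genes). Against naive 1 fell in memory (5.02% of all genes) and 2 in PD-1hi (13.7%). None rose in memory (6.7% of all genes), PD-1int (11.9%) or PD-1hi (13.4%). Against memory 1 rose (10.8% of all genes) and 1 fell (11.1%) in PD-1hi and 0 passed in PD-1int (16.2%). Srebf1 and Srebf2 encode the SREBP factors, with Srebf2 the main driver of sterol genes and Srebf1 of fatty acid genes. Srebf1 had differences from -0.06 to 0.01 and passed in none of the 6 comparisons. Srebf2 was 10.42, 10.33, 10.17 and 10.64 in naive, 10.02, 10.14, 9.89 and 9.99 in memory, 9.93, 10.03, 10.35 and 10.15 in PD-1int and 10.19, 10.06, 10.07 and 9.81 in PD-1hi. All naive arrays lay above all memory arrays, and naive replicates 2 and 3 lay within the effector range. Srebf2 fell against naive with a log2 difference of -0.38 ± 0.11 in memory (limma adjusted p = 0.0323) and -0.36 ± 0.11 in PD-1hi (adjusted p = 0.0225). In PD-1int the difference was -0.27 ± 0.11 and did not pass (adjusted p = 0.0945).

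Scap, the SREBP escort, fell in PD-1hi with a log2 difference of -0.31 ± 0.09 against naive and -0.30 ± 0.09 against memory (limma adjusted p = 0.0158 and 0.0255). Its second, dimmer probe set averaged 6.24 in PD-1hi, 6.36 in PD-1int, 6.34 in memory and 6.37 in naive cells, and with the mean of both probe sets the fall against memory did not pass (adjusted p = 0.0654). Insig2 rose in PD-1hi against memory (0.43 ± 0.13, adjusted p = 0.0201). Insig1, itself a well-known SREBP target, spread widely, with 7.67, 7.81, 8.06 and 8.52 in PD-1int and 8.16, 7.47, 8.11 and 7.34 in PD-1hi, against 7.72, 8.20, 7.91 and 8.45 in naive and 7.45, 7.66, 7.38 and 7.51 in memory. The memory arrays were all below the naive arrays, but neither this difference (-0.57 ± 0.20, limma adjusted p = 0.0835) nor any other of Insig1 passed. When 1 array was left out, Srebf2 lost its call in 5 of 16 fits for memory (0.107, without naive replicate 4) and 2 for PD-1hi (0.0882, without PD-1hi replicate 4). Scap lost it in 2 against naive (0.0637, without naive replicate 4) and 4 against memory (0.089, without memory replicate 4), and Insig2 in 3 (0.0832, without memory replicate 3).

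The sterol exporters fell in every antigen-experienced subset. Abca1, which loads cellular cholesterol onto apolipoproteins, had the largest differences of all 30 genes. Its arrays read 8.65, 8.52, 8.95 and 7.94 in naive, 7.21, 7.97, 7.58 and 7.64 in memory, 6.10, 6.00, 6.37 and 6.22 in PD-1int and 6.40, 6.29, 5.87 and 6.26 in PD-1hi. All 8 effector arrays were below all memory and naive arrays, and 1 memory array (replicate 2) just exceeded the lowest naive array (replicate 4). Against naive, Abca1 fell with a log2 difference of -0.91 ± 0.18 in memory (limma adjusted p = 0.00247), -2.34 ± 0.18 in PD-1int (adjusted p = 2.17e-08) and -2.31 ± 0.18 in PD-1hi (adjusted p = 1.71e-08). On the linear scale this was 1.88-fold, 5.06-fold and 4.95-fold lower. Against memory it fell with a log2 difference of -1.43 ± 0.18 in PD-1int and -1.40 ± 0.18 in PD-1hi. None of the 5 Abca1 calls was lost in any of the 24 alternative fits.

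Abcg1, which passes sterol to lipoprotein particles, fell less steeply. It read 9.31, 9.42, 9.69 and 9.33 in naive, 9.01, 8.86, 8.95 and 9.07 in memory, 8.58, 8.65, 9.12 and 8.52 in PD-1int and 8.55, 9.16, 8.98 and 8.73 in PD-1hi. Every naive array was above every array of the other subsets, which overlapped among themselves. The differences from naive were -0.58 ± 0.14 in PD-1hi, -0.72 ± 0.14 in PD-1int and -0.46 ± 0.14 in memory (limma adjusted p = 0.00338, 0.000704 and 0.0364). The call in memory was lost in 6 of the 16 fits without 1 array (0.128, without naive replicate 3). Nr1h3 encodes the LXR alpha receptor, which induces both exporters, and Nr1h2, the other LXR gene of the list, has no value. Nr1h3 had differences against naive of -0.19 ± 0.11, -0.22 ± 0.11 and -0.24 ± 0.11 in memory, PD-1int and PD-1hi, and passed nowhere. Stard4, a carrier that moves sterol between membranes, rose in PD-1hi by 0.56 ± 0.11 against naive and 0.47 ± 0.11 against memory (adjusted p = 0.000721 and 0.00408). Macrophages are known for high Abca1 and Nr1h3. Of 12 measured myeloid and dendritic-cell markers 3 rose in PD-1hi (13.4% of all genes), 5 in PD-1int (11.9%) and 2 in memory (6.7%) against naive, and 0 fell (13.7%, 10.8% and 5.02%). Their summed level, as log2, was 12.03 to 12.35 in PD-1hi, 12.10 to 12.23 in PD-1int, 11.41 to 11.50 in memory and 11.03 to 11.32 in naive cells. Most of this sum was Cst3 and Cd68, which averaged 10.93 and 10.99 in PD-1hi and 10.36 and 7.94 in naive cells. Lyz2, Cd14 and Adgre1 were dim, at 6.43, 5.07 and 6.02 in PD-1hi and 5.93, 5.04 and 5.89 in naive cells. Against naive, Cd68 rose by 2.86 ± 0.17 in PD-1int and 3.05 ± 0.17 in PD-1hi, and Itgam by 1.55 ± 0.20 and 1.03 ± 0.20. Csf1r ranged from 5.97 to 7.03 and passed in no comparison. The part of myeloid RNA in the differences of Abca1 was not tested.

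Genes of fatty acid synthesis did not move as a block. Acly, which makes cytosolic acetyl-CoA from citrate for both routes, was higher in effector cells. It went from 10.05, 9.90, 9.94 and 10.16 in naive and 10.23, 10.17, 10.06 and 10.23 in memory to 10.33, 10.46, 10.38 and 10.53 in PD-1int and 10.44, 10.45, 10.46 and 10.52 in PD-1hi. All effector arrays exceeded all naive and memory arrays. The rise against naive was 0.41 ± 0.08 in PD-1int and 0.45 ± 0.08 in PD-1hi (limma adjusted p = 0.000453 and 0.000126), and that against memory 0.25 ± 0.08 and 0.29 ± 0.08. Fasn, the synthase that assembles palmitate, peaked in memory instead. It measured 10.50, 10.32, 10.48 and 10.52 in naive, 11.04, 10.84, 10.94 and 11.09 in memory, 10.62, 10.44, 10.48 and 10.51 in PD-1int and 10.61, 10.16, 10.34 and 10.18 in PD-1hi. All memory arrays lay above all other arrays, and the remaining subsets overlapped. Fasn was the single member that rose in memory against naive (0.52 ± 0.10, 1.44-fold, limma adjusted p = 0.000993), and against memory it fell with a log2 difference of -0.46 ± 0.10 in PD-1int and -0.66 ± 0.10 in PD-1hi. Of 13 measured B-cell and CLL markers, 1 (Cd22, 3.22 ± 0.12) rose (6.7% of all genes) and 0 fell (5.02%) from naive to memory. Their summed level, as log2, was also highest in memory, at 10.60 to 10.78, against 9.95 to 10.10 in naive, 9.90 to 10.17 in PD-1int and 9.76 to 9.95 in PD-1hi. Without Cd22, a sum formed after its values were seen, the level was 9.72 to 9.97 in memory and 9.83 to 9.995 in naive cells, and these ranges overlapped. The part of B-cell RNA in the Fasn difference was not tested.

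Acaca, the carboxylase that supplies malonyl-CoA to Fasn, and Elovl6, which lengthens palmitate, were lowest in PD-1hi. Acaca was 7.997, 8.25, 8.25 and 8.43 in naive, 8.47, 8.46, 8.32 and 8.48 in memory, 8.19, 8.30, 7.88 and 8.36 in PD-1int and 7.96, 7.46, 7.81 and 7.85 in PD-1hi. All PD-1hi arrays were below all naive and memory arrays. It fell in PD-1hi with a log2 difference of -0.46 ± 0.12 against naive and -0.66 ± 0.12 against memory (limma adjusted p = 0.00676 and 0.00039). Elovl6 spread most in PD-1hi, with 7.43, 8.01, 8.51 and 7.07, against 8.21, 8.69, 8.76 and 8.595 in memory, and fell with a log2 difference of -0.81 ± 0.24 (adjusted p = 0.0194). Thus 3 of the 5 measured genes, Acaca, Fasn and Elovl6, fell in PD-1hi against memory (11.1% of all genes) and 1, Acly, rose (10.8%). Scd1, the desaturase that makes oleate, was dim and variable, from 4.13 to 6.13 over the 16 arrays, and passed in no comparison. The files hold no detection calls, so whether Scd1 was above background is not known. Without 1 array Elovl6 lost its call in 4 of 16 fits (0.0793, without PD-1hi replicate 4) and Acly in PD-1int against memory in 4 (0.102, without memory replicate 3).

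**Figure D4:**
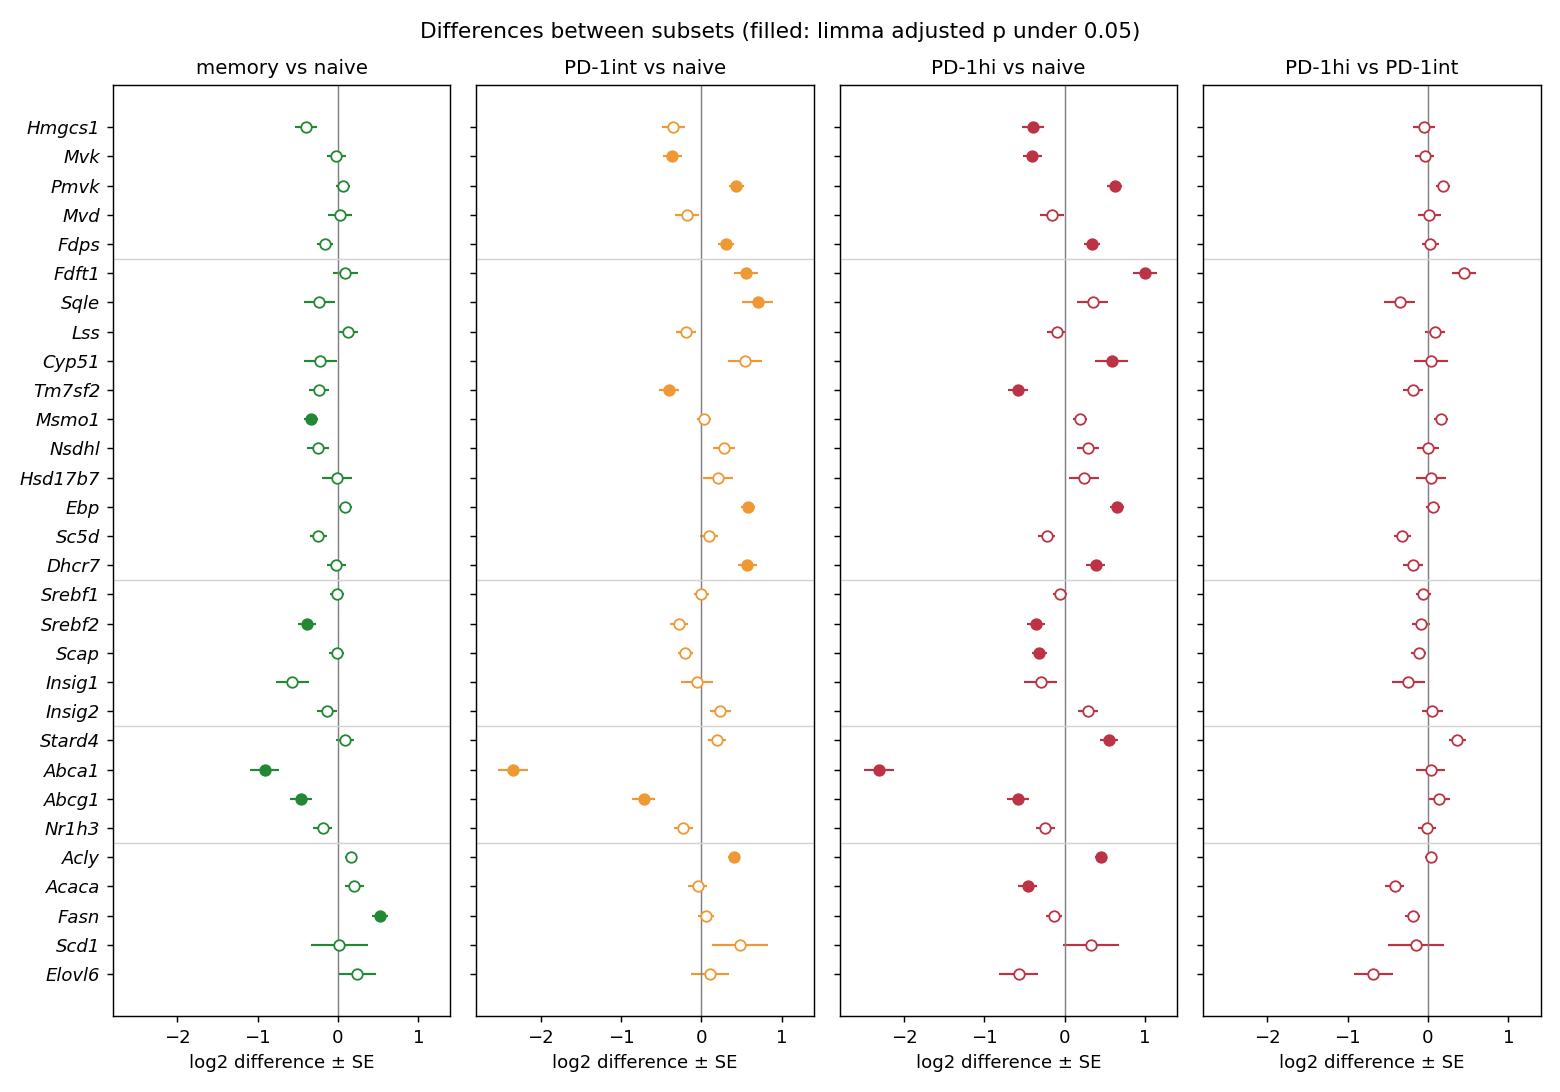
Log2 differences ± SE (limma fit, n = 4 arrays per subset) of the 30 genes, by role from top to bottom, with 1 panel for each subset against naive and a last panel for the PD-1hi subset against PD-1int. Filled points have a limma adjusted p under 0.05, and none is filled in the last panel. Abca1 lies far to the left in the first 3 panels and at 0.03 in the last.

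Cells sorted for high and for intermediate PD-1 did not differ past the threshold in any of these genes. By limma 0 of 30 passed, where 3.31% of all genes did, a share too small for this count to set these genes apart. On simulated arrays the same comparison recovered 60 of 100 genes changed by 0.5 and 94 of 100 changed by 1 on the log2 scale. Smaller differences can thus be missed. In the simulation only these genes changed, drawn at random from all 22180, dim ones included, with noise independent between genes. The measured arrays gave 734 calls in this comparison, so these rates are not those of the 30 members. An unadjusted limma p under 0.05 was found for 5 of 30, where 14.2% of all genes had one. Those 5 were Fdft1 (0.45 ± 0.15) and Stard4 (0.37 ± 0.11), higher in PD-1hi, and Sc5d (-0.32 ± 0.11), Acaca (-0.41 ± 0.12) and Elovl6 (-0.68 ± 0.24), lower in PD-1hi. Acaca had the smallest adjusted p, 0.0739, followed by Stard4 with 0.0898. Every Fdft1 array of PD-1hi lay above every PD-1int array, and every Sc5d array below. The differences of Abca1 (0.03 ± 0.18) and Ebp (0.06 ± 0.09) were near 0. Some alternative fits called 1 gene. Fdft1 passed in a fit of the 8 arrays alone (adjusted p = 0.0205), Stard4 with the replicate number as a block (0.0278) and without PD-1hi replicate 2 (0.0209), Acaca without the 40% dimmest genes (0.0487) and without PD-1int replicate 3 (0.0242), and Elovl6 without PD-1hi replicate 3 (0.0208).

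Neighbouring genes of the pathway, from lists that were not part of the 30, moved in both directions. Of 8 further sterol synthesis and SREBP processing genes, PD-1int had 0 rises (11.9% of all genes) and 3 falls (10.8%) against naive. For PD-1hi the counts were 1 rise (13.4%) and 4 falls (13.7%). Acat1, a mitochondrial thiolase, fell with a log2 difference of -0.59 ± 0.10 and -0.84 ± 0.10. Mbtps1, the site-1 protease that cleaves SREBP, fell with a log2 difference of -0.52 ± 0.07 in PD-1hi, -0.61 ± 0.07 in PD-1int and -0.42 ± 0.07 in memory, and Erlin1, a membrane protein that restrains SREBP, with differences of -1.05 ± 0.17 in PD-1int and -0.71 ± 0.17 in PD-1hi. Tmem97, a sterol-binding membrane protein, was the rise in PD-1hi (0.66 ± 0.18). Of 11 genes of sterol storage, uptake and transport, PD-1int had 1 rise (11.9% of all genes) and 4 falls (10.8%) against naive. For PD-1hi there were 0 rises (13.4%) and 4 falls (13.7%). Npc2 and Lipa, which free cholesterol from lysosomes, and the lipoprotein receptor Scarb1 were among the falls, with differences of -0.49 ± 0.09, -0.74 ± 0.16 and -0.70 ± 0.14 in PD-1hi.

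Among 15 further genes of fatty acid synthesis and activation, PD-1int had 2 rises (11.9% of all genes) and 3 falls (10.8%) against naive. The PD-1hi subset had 4 rises (13.4%) and 3 falls (13.7%). The gene of this list with the smallest adjusted p in PD-1hi against naive was Acss2, which makes acetyl-CoA from acetate. It read 8.99, 9.08, 9.43 and 9.11 in naive, 8.82, 9.18, 8.80 and 8.77 in memory, 8.07, 8.33, 8.31 and 8.27 in PD-1int and 6.55, 7.45, 7.32 and 6.73 in PD-1hi. Every PD-1hi array was below every PD-1int array, and these were below every memory and naive array. Acss2 fell with a log2 difference of -0.91 ± 0.17 in PD-1int and -2.14 ± 0.17 in PD-1hi against naive, or 1.88-fold and 4.41-fold lower (limma adjusted p = 0.000418 and 1.10e-08). From PD-1int to PD-1hi it fell with a log2 difference of -1.23 ± 0.17 (adjusted p = 0.000241), and no other measured gene of the 4 neighbouring lists passed in that comparison. Elovl1, an elongase of long chains, rose by 0.72 ± 0.11 and Elovl5, an elongase of polyunsaturated chains, fell with a log2 difference of -0.56 ± 0.08 in PD-1hi against naive.

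Fatty acid oxidation, the opposite route, was also mixed. Against naive, 3 of 12 genes rose (11.9% of all genes) and 2 fell (10.8%) in PD-1int. In PD-1hi 4 rose (13.4%) and 4 fell (13.7%). The long-chain dehydrogenase Acadl rose by 1.07 ± 0.09 in PD-1int and 1.39 ± 0.09 in PD-1hi (limma adjusted p = 8.09e-08 and 1.81e-09), and the medium-chain dehydrogenase Acadm fell with a log2 difference of -0.67 ± 0.11 and -0.88 ± 0.11. Cpt1a, which admits fatty acids to mitochondria, rose by 0.59 ± 0.08 and 0.56 ± 0.08.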

How the data were processed

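RNA of 16 sorted samples, 4 per subset, was hybridised to Affymetrix Mouse Gene 2.0 ST arrays after labelling with a WT Pico kit, per the labels' protocols. The authors deposited log2 values, 1 for each probe set and array, made with Affymetrix Power Tools per the submitters' processing notes. Neither its version nor the way probes were summarised is stated in those notes or the labels. The log base was read from the range, 2.35 to 14.13. The file holds 41345 probe sets. Left out were 16010 without a symbol and 1814 that name several, and a gene with several of its own was represented by that of highest mean over the 16 arrays, which left 22180 genes. The number of arrays limits the precision; array files carry no detection calls.

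All 16 arrays were fitted with limma 3.58.1 in R 4.3.3 (a mean per subset, no block, eBayes), and p-values were Benjamini-Hochberg adjusted over all genes of a comparison. Nothing in the labels says that the arrays come from separate mice, so p-values measure the spread between these samples, which may be technical. The members and lists were chosen with earlier results of these data known. Values on every array were to be given for members called with a log2 difference of 1 or more (Abca1 and Fdft1); those of other members were chosen after their values were seen. Genes of the lists outside the members were mostly named by the smallest adjusted p. Some markers, such as Ms4a1, Csf1r, Lyz2, Cd14 and Adgre1, were named apart from that rule. The fit was tested on simulated arrays with the genes' own means and spreads. Alternatives were a replicate block, the 8 arrays compared alone, no dim genes, array weights, a trended and robust eBayes, median centring, quantile normalization, averaged probe sets, and each array left out in turn. Deviations of arrays from their subset means were correlated across genes between different subsets. For arrays of the same replicate number the median r was 0.035 (from -0.048 to 0.151). For arrays of other numbers it was -0.0098 (from -0.168 to 0.200). These overlapping ranges do not decide whether same-numbered arrays are paired. Motifs were searched in RefSeq promoter windows with Python 3.11.15.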

Additional observations from a re-analysis of the deposited data

Results flagged for a closer look

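Of 120 sets of 4 arrays (30 genes in 4 subsets), 7 had an array that stood apart from the other 3, where chance gives about 1 in 20. In PD-1hi these were Hmgcs1 in replicate 1 (8.18, others 7.59 to 7.65), Mvd in replicate 2 (8.18, others 8.82 to 8.84) and Lss in replicate 3 (6.68, others 7.24 to 7.29). In PD-1int they were Msmo1 in replicate 1 (8.02, others 8.24 to 8.25) and Sc5d in replicate 2 (9.96, others 9.63 to 9.65). The others were Tm7sf2 in naive replicate 3 (7.79, others 7.99 to 8.03) and Acaca in memory replicate 3 (8.32, others 8.46 to 8.48). For Hmgcs1 the PD-1hi mean lay below naive with replicate 1 included, and the remaining 3 PD-1hi arrays were each below every naive array. Its call in PD-1hi against naive was kept without PD-1hi replicate 1. Sc5d bears on a result, since without PD-1int replicate 2 its rise against memory did not pass (limma adjusted p = 0.145).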

How the results depend on the processing

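No call reversed its direction in any alternative. Of 63 calls over the 6 comparisons, 39 were kept in all 24 alternative fits, 24 were lost in at least 1 of the 16 fits without an array, and 13 in at least 1 of the other 8 settings. The number of members changed without 1 array ran from 3 to 6 in memory against naive (5 with all arrays), 8 to 11 in PD-1int against naive (11), 12 to 16 in PD-1hi against naive (16), 9 to 14 in PD-1int against memory (13), 13 to 19 in PD-1hi against memory (18), 0 to 1 in PD-1hi against PD-1int (0) and 18 to 20 for any difference among the 4 subsets (21). The 3 left in memory against naive came without naive replicate 3 and without each of the 4 memory replicates. With the replicate number as a block, the counts were 4, 11, 15, 13, 18, 1 and 19 in that order. Whether same-numbered arrays are paired was not decided by the check of their deviations, in which 10 of 16 arrays correlated best with 1 of their own number. The sample titles number the arrays 1 to 4 in each subset, so that 3 of the 12 arrays of the other subsets share an array's number. PD-1hi against PD-1int gave 1 call with the replicate block, 1 with only the 8 arrays compared and 1 without the 40% dimmest genes, and 0 in the other 5 settings. Only the 8 arrays gave 11 calls in PD-1hi against naive, where the 16 arrays gave 16. Cyp51 in PD-1hi against naive was the least stable call, lost in 6 of the 8 settings (highest limma adjusted p 0.0822). Other calls lost were Sqle in PD-1hi against memory with the block (0.0621), Srebf2 in memory against naive with the block (0.0588) and with array weights (0.0511), and Acly and Fdft1 in PD-1int against memory with median centring (0.0521 and 0.0622). Sc5d in PD-1int against memory was lost with centring (0.052) and with quantile normalization (0.0542), as was Fdps in PD-1int against naive (0.0534 and 0.0615). The 8 arrays alone ended the calls of Dhcr7 (0.054), Mvk (0.0538), Scap (0.0506) and Hmgcs1 (0.0626) in PD-1hi and of Mvk in PD-1int (0.0911) against naive. Array weights ended those of Hmgcs1 (0.0585) and of Mvk in PD-1int (0.0782) too, and averaged probe sets that of Scap in PD-1hi against memory (0.0654). The median over the members stayed between -0.12 and 0.00 in memory against naive and between 0.11 and 0.23 in PD-1int against memory. The number of arrays, 4 per subset, and the lack of detection calls limit what can be said of dim genes such as Scd1. The cause of these changes was not tested.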
